A study of Mus musculus with 18 samples.

Results

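The comparison is between livers taken at zeitgeber time (ZT) 17 and livers taken at ZT13, where ZT counts the hours since the lights came on, so that the 4 h between them run from the early to the middle part of the night. Its members were taken from the deposited table of normalized values by the labels alone, as the 3 livers of ZT13 and the 3 livers of ZT17 out of 18 livers collected at 6 time points. All the mice were wild-type males, 8 to 9 weeks old when killed, kept in 12 h of light and 12 h of darkness with no treatment named in the labels. Every liver was taken whole and frozen, and each mouse gave 1 liver, so no animal was followed from one time to the other. The study kept more mice per group than it sequenced and chose those with the best RNA. The labels give the molecule sequenced as polyadenylated RNA, while the methods of the study speak of whole RNA and name no selection step. The livers held 12219597, 15457407 and 11501500 estimated reads at ZT13 and 15204349, 12442234 and 15184364 at ZT17. Of the 14451 genes in the table, 14449 exceeded the floor of their liver somewhere and were compared. Each value is an estimated read count plus 0.5 per 1000000 reads of an effective library size, not of the plain total. Each change is a difference of mean log2(value + 1), ZT17 minus ZT13. These p-values measure the spread between single livers of a time point, and the values are not divided by gene length, so the level of a gene is compared between livers and not with that of another gene.

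In the mouse liver the circadian clock is a loop of transcription factors. ARNTL (also called BMAL1) pairs with CLOCK or NPAS2 and activates genes through E-box sequences, among them the genes of the Period and Cryptochrome proteins, which then repress the pair. A second arm is formed by the repressors NR1D1 and NR1D2 (the REV-ERBs) and the ROR activators, which share a DNA element in the Arntl gene, and another by DBP, TEF and HLF, which activate genes through D-boxes that the repressor NFIL3 also binds. Mice eat mostly at night, so in the early dark the liver goes over from using stored fuel to handling a meal, and body temperature and corticosterone are high near the start of the night.

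From ZT13 to ZT17, 174 of the 14449 genes passed an adjusted p of 0.05 in limma, which is 1.2% of them. They were 97 genes that rose (0.671%) and 77 that fell (0.533%). Among clock genes, Dbp and Tef of the D-box arm, both REV-ERB genes, Per3, Ciart and Usp2 fell, and Arntl, Npas2 and Cry1 rose. Hspa1b, which encodes an inducible heat shock protein of the HSP70 family, fell 4.26-fold and Elovl3, an elongase of very long chain fatty acids, rose 3.46-fold. Most changes were modest, with a median size of 0.74 on the log2 scale in the genes that rose and 0.68 in those that fell. Only 24 of the rises and 17 of the falls reached a log2 change of 1. The 3 livers of one time did not overlap the 3 of the other in 97 of the 97 genes that rose and in 76 of the 77 that fell, the exception being Lpin1, against 18.9% of all genes tested. The median change of all genes was −0.01. At an unadjusted p below 0.05 stood 2152 genes, 14.9% of those tested, with 1093 higher and 1059 lower.

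The number of calls depended on single livers. Without ZT13 replicates 1, 2 and 3 in turn it was 57, 110 and 106, and without ZT17 replicates 1, 2 and 3 it was 50, 141 and 49. Scaling each liver to a plain total of 1000000 gave 150 calls and turned the split, with 65 genes higher and 85 lower in place of 97 and 77. Between livers of the same time the Pearson correlation across genes of log2(value + 1) had a median of 0.987 over 6 pairs, and between livers of the other time 0.985 over 9 pairs.

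**Figure D1:**
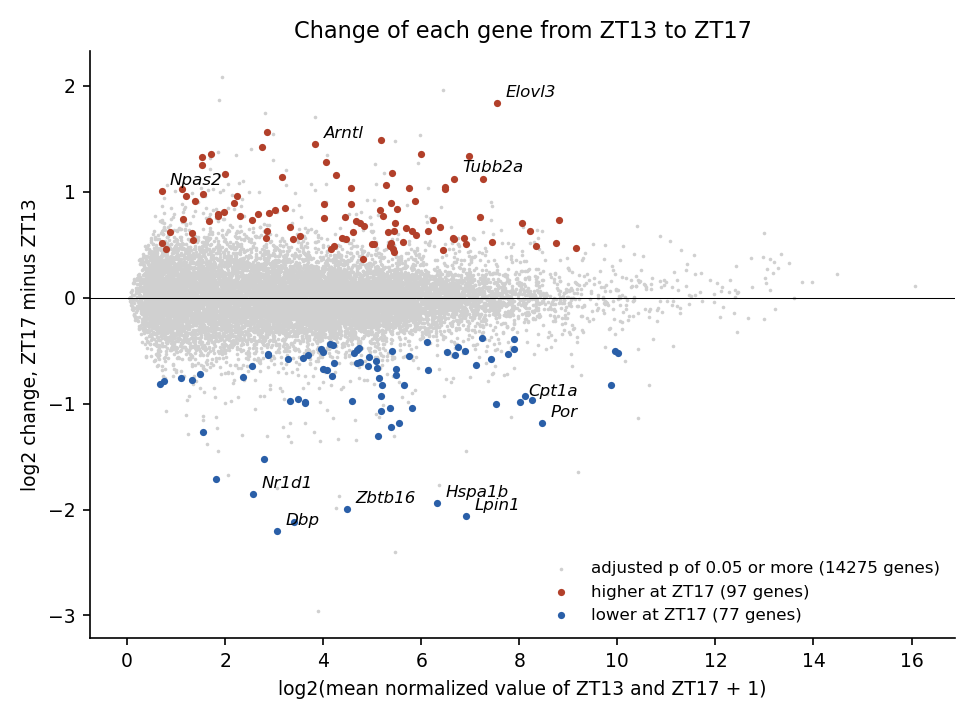
Each point is 1 of 14449 genes, placed by log2 of its mean normalized value over ZT13 and ZT17 plus 1 (horizontal axis) and by its log2 change, ZT17 minus ZT13 (vertical axis). Red points are the 97 genes called higher and blue points the 77 called lower at an adjusted p of 0.05. The falls of Dbp, Lpin1, Zbtb16 and Hspa1b are near 2 on the log2 scale, and Elovl3 is the highest red point.

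Upstream stretches of 5 genes are shown because they hold clock or heat shock elements, so they were picked for their matches. Of the 10 called clock genes, all with a window, 5 held none of the motifs searched, namely Npas2, Dbp, Nr1d1, Nr1d2 and Usp2, and of the 2 called heat shock genes Dnajb1 held no heat shock element. Each is the 250 bases before a RefSeq transcript start in GRCm38.p6, in lower case with the matches in capitals. The motifs were CACGTG for the E-box, TTANGTAA for the D-box, TAGGTCA for the ROR element and GAANNTTC for the heat shock element, searched on both strands of the 250 bases before and 50 after each start, with no overlap between one motif and another in the stretches shown. Of all 32851 RefSeq windows of this length, 7.15% held the E-box, 2.32% the D-box, 2.61% the ROR element and 7.86% the heat shock element. The stretches of Ciart (chr3:95882229-95882478, minus strand), Cry1 (chr10:85185055-85185304, minus strand) and Tef (chr15:81811164-81811413, plus strand) hold E-boxes, that of Per3 (chr4:151044666-151044915, minus strand) holds D-boxes, and that of Hspa1b (chr17:34959239-34959488, minus strand) a heat shock element.
Ciart: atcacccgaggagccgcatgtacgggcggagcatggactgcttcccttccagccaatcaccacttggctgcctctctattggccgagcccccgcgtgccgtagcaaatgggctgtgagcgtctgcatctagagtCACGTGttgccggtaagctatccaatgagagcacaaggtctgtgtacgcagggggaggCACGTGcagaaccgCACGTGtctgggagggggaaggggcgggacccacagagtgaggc
Cry1: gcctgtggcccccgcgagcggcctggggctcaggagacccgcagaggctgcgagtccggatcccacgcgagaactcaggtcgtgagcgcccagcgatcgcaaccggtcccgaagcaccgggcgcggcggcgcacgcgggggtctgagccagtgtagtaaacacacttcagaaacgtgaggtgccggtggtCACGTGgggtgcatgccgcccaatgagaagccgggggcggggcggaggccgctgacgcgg
Tef: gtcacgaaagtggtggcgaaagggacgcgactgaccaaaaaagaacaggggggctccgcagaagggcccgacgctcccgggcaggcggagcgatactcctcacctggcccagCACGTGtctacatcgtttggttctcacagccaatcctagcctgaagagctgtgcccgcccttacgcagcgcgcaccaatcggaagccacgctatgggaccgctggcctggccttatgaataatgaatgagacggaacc
Per3: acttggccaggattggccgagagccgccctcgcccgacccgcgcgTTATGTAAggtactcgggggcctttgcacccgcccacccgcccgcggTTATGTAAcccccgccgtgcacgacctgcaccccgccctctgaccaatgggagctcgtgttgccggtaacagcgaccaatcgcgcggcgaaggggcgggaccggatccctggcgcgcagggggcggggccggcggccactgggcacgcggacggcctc
Hspa1b: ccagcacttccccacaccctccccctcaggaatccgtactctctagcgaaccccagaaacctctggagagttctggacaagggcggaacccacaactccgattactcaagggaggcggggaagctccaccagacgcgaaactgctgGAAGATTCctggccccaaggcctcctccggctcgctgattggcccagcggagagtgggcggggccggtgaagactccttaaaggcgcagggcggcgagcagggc

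Ciart had 3 E-box matches, whose first bases lay 116, 58 and 44 bases before the start. Cry1 had 1, at 60 bases before it, and both windows of Tef had 1, the one shown at 138 bases. Per3 had 2 D-box matches, at 205 and 158 bases before its start. The match of Hspa1b lay 104 bases before its start. In Arntl the ROR element stood after the start, 30 bases into the transcript, in 1 of its 2 windows (chr7:113207529-113207558, plus strand).
Arntl: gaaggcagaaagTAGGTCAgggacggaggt
Of the 174 called genes, 139 had a window in the RefSeq table. An E-box was present for 11.7% of the 77 genes that rose and had a window, for 9.68% of the 62 that fell, and for 11.5% of all tested genes with a window. The D-box was present for 4 genes that rose (5.19%), 3 that fell (4.84%) and 1.99% of tested genes, the ROR element for 4 that rose (5.19%), none that fell and 2.5% of tested genes, and the heat shock element for 6 that rose (7.79%), 5 that fell (8.06%) and 7.05% of tested genes. These shares rest on few genes and were not tested. A match says only that the letters are there.

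Of the activators of the clock loop, Arntl and Npas2 rose. Arntl (ENSMUSG00000055116, chr7:113207465-113314126) was at 7.91, 5.78 and 6.38 at ZT13 and 20.3, 17.4 and 22.02 at ZT17, so every ZT17 liver lay above every ZT13 liver and the mean rose 2.98-fold (log2 change 1.45, adjusted p = 0.012). This is the gene with the ROR element printed above. For Npas2 (ENSMUSG00000026077, chr1:39193731-39363236), a paralog of Clock whose protein can take the place of CLOCK beside ARNTL, the ZT13 livers held 0, 0 and 1 read and the ZT17 livers 21.9, 6 and 21 estimated reads. The ratio of its reads was 46.0 with an exact 95% interval of 7.87 to 1850 that covers counting error only, and its log2 change was 1.00 (adjusted p = 0.0078). Clock itself was at 39.96, 48.1 and 41.9 at ZT13 and 60.2, 55.8 and 58.6 at ZT17, with no overlap, and it did not pass the test (log2 change 0.42, adjusted p = 0.09).

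Of the Period and Cryptochrome genes, which encode repressors of the loop, Cry1 rose, Per3 fell and Per1, Per2 and Cry2 did not pass the test. Cry1 (ENSMUSG00000020038, chr10:85131700-85185064) was at 27.8, 26.9 and 24.7 at ZT13 and 52.8, 40.1 and 44.8 at ZT17, and it rose 1.74-fold (adjusted p = 0.047). Per3 (ENSMUSG00000028957, chr4:151003652-151044665) was at 27.01, 32.7 and 32.8 at ZT13 and 14.8, 18.4 and 12.6 at ZT17, all ZT17 livers below all ZT13 livers, and it fell 2.02-fold (adjusted p = 0.024). Per3 lies within the annotated span of Camta1 on the same strand, and the change of Camta1 was −0.04. Per1 was at 24.9, 17.1 and 20.97 at ZT13 and 8.95, 7.05 and 6.68 at ZT17. The groups did not overlap, but the call was missed (log2 change −1.35, adjusted p = 0.064). Per2 (−0.51, adjusted p = 0.36) and Cry2 (0.20, adjusted p = 0.48) were farther from the threshold. Ciart, a repressor of the ARNTL and CLOCK pair whose upstream E-boxes are shown above, was at 9.14, 8.02 and 10.6 at ZT13 and 3.05, 2.55 and 2.07 at ZT17 and fell 3.61-fold (adjusted p = 0.025). Ciart shares 3749 bases, its whole annotated span, with C920021L13Rik on the other strand, which had a change of −0.14 and no call.

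Both REV-ERB genes fell. Nr1d1 (ENSMUSG00000020889, chr11:98767932-98775333) was at 7.36, 6.09 and 11.7 at ZT13 and 1.14, 1.16 and 2.43 at ZT17, a log2 change of −1.86 with a standard error of 0.28 (adjusted p = 0.0062). Nr1d2 (ENSMUSG00000021775, chr14:18204054-18239127) was at 37.7, 50.96 and 56.8 at ZT13 and 19.6, 20.2 and 16.6 at ZT17, a log2 change of −1.30 with a standard error of 0.16 (adjusted p = 0.0016). In both, the highest ZT17 liver stood below the lowest ZT13 liver. The end of Nr1d1 overlaps that of Thra on the other strand, and Thra had a change of 0.19, which did not pass the test. Rora, which encodes a ROR factor, had a log2 change of 0.37 and was not called (adjusted p = 0.21).

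In the D-box arm, Dbp (ENSMUSG00000059824, chr7:45705088-45710203) had the lowest adjusted p of all genes. It was at 9.89, 12.2 and 16.1 at ZT13 and 1.92, 2.36 and 1.55 at ZT17, so it fell 6.55-fold (log2 change −2.21, standard error 0.18, adjusted p = 3.1e-05). Dbp shares 737 bases with Sphk2 on the other strand, which had a change of 0.12 and no call. Tef was at 163, 175 and 169 at ZT13 and 104, 112 and 109 at ZT17 and fell 1.56-fold with no overlap (adjusted p = 0.011). Hlf was at 82.99, 86.3 and 78.7 at ZT13 and 64.9, 63.9 and 54.6 at ZT17 without overlap and without a call (adjusted p = 0.12), and the D-box repressor Nfil3 was at 28.6, 26.6 and 24.7 at ZT13 and 35.4, 37.2 and 44.1 at ZT17, also apart and not called (adjusted p = 0.071). Of the remaining clock genes, Usp2, a ubiquitin protease under clock control, was at 49.95, 42.98 and 51.3 at ZT13 and 19.7, 22.2 and 25.5 at ZT17 and fell 2.14-fold (adjusted p = 0.041). Bhlhe40 (−0.52), Bhlhe41 (−0.35) and Wee1 (−0.50) were not called. The genes of the kinases and ubiquitin ligase parts that turn over clock proteins had changes of 0.08 for Csnk1d, 0.03 for Csnk1e, 0.15 for Fbxl21 and −0.09 for Btrc, none of them called.

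Over the 26 genes of the clock list, 3 rose, 7 fell and 16 did not pass the test, with a median change of −0.22 against −0.01 for all genes. Of all genes tested, 0.671% rose and 0.533% fell, and these shares also stand beside the counts of the lists below. Without ZT17 replicate 1 the list held 1 rise and 3 falls, and without ZT17 replicate 3 it held 1 and 4. Leaving out any 1 of the ZT13 livers gave 2 rises and 4 falls. Cry1, Usp2 and Ciart were not called without any 1 of the 6 livers, Per3 was called only without ZT17 replicate 2, Arntl was not called without ZT17 replicate 1 or 3, and Tef not without ZT17 replicate 1. Over all 17 alternative settings, Dbp kept its call in 17, Nr1d1, Nr1d2 and Npas2 in 16, Arntl and Tef in 13, Usp2 and Ciart in 8, Per3 in 7 and Cry1 in 5. No clock gene that was called changed direction in these fits.

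**Figure D2:**
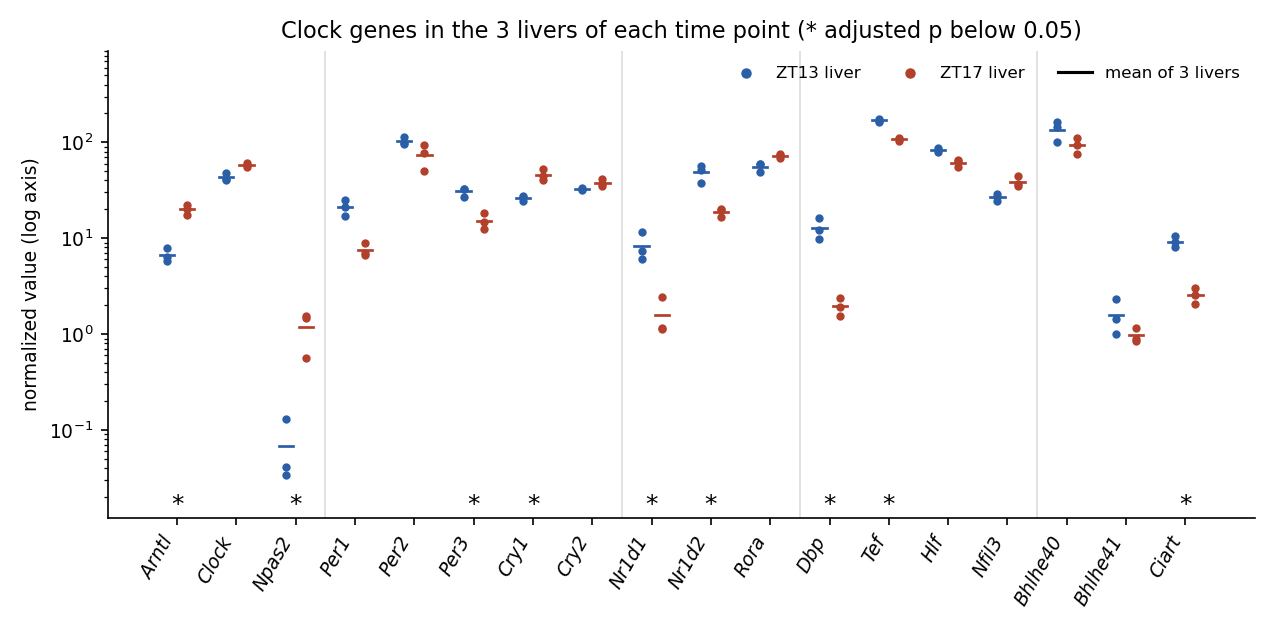
Normalized values on a log axis of 18 clock genes in the 3 ZT13 livers (blue) and the 3 ZT17 livers (red), with short lines at the means and stars at genes with an adjusted p below 0.05. Vertical lines part the activators, the Period and Cryptochrome genes, the REV-ERB genes with Rora, the D-box factors and other repressors. The groups of Arntl, Npas2 and Cry1 are higher and those of Per3, Nr1d1, Nr1d2, Dbp, Tef and Ciart lower at ZT17.

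The 12 largest rises among called genes with no overlap were those of Elovl3, Clic3, Rnf125, Arntl, Spon2, Gm15998, Hist1h1c, Aqp8, B230206H07Rik, Serpine2, Pitx3 and Pnrc1, with log2 changes from 1.84 down to 1.17. Elovl3 (ENSMUSG00000038754, chr19:46131897-46135694) was at 53.2, 79.6 and 118 at ZT13 and 248.7, 274 and 344 at ZT17, with a wide spread at ZT13 that still left a gap to ZT17 (log2 change 1.84, adjusted p = 0.0037). Pitx3, a homeodomain transcription factor whose annotated end overlaps that of Elovl3 on the other strand, was at 0.205, 0.513 and 1.43 at ZT13 and 2.30, 2.12 and 4.78 at ZT17 and rose with it (adjusted p = 0.028). The annotations of the pair share only 10 bases. The library kit is not stated to keep the strand, so reads from those bases cannot be told apart. Hist1h1c, which encodes the linker histone H1.2, was at 28.6, 38.1 and 34.7 at ZT13 and 115, 56.7 and 102 at ZT17, with 1 ZT17 liver well below the others and still above all of ZT13 (adjusted p = 0.012). Aqp8, a water channel of hepatocytes, was at 58.9, 57.5 and 96.4 at ZT13 and 149, 185 and 197 at ZT17, which is a mean 2.49-fold higher (adjusted p = 0.011). Spon2, a secreted matrix protein, was at 2.83, 1.88 and 3.34 at ZT13 and 7.79, 9.56 and 8.92 at ZT17, and its call held in all 17 alternative settings (adjusted p = 0.0037).

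Among the others of these 12, the protease inhibitor Serpine2 rose from a mean of 8.77 to 22.6, the nuclear receptor coactivator Pnrc1 from 24.4 to 57.9, the ubiquitin ligase gene Rnf125 from 17.6 to 52.4 and the chloride channel protein gene Clic3 from 2.90 to 9.61. Clic3 overlaps BC029214 on the other strand, which had a change of 1.26 and no call. Gm15998 and B230206H07Rik rose from 0.850 to 3.71 and from 0.639 to 3.11. Gm15998 lies within the span of Efna3 (0.63, not called) and B230206H07Rik shares 3880 bases with Eps8l2 (0.91, called), both on the other strand, so reads from the shared bases cannot be told apart. Of the 17 alternative settings, Elovl3 kept its call in 16, Gm15998 and B230206H07Rik in 14, Aqp8 and Serpine2 in 13, Rnf125 and Hist1h1c in 12, Pnrc1 in 11, Pitx3 in 10 and Clic3 in 7. Clpx, the unfoldase subunit of a mitochondrial protease, had the lowest adjusted p of the rising genes. It was at 103, 96.6 and 86.5 at ZT13 and 206, 191 and 228 at ZT17, more than the spread within either group (log2 change 1.12, standard error 0.12, adjusted p = 7.1e-04).

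The 12 largest falls among called genes with no overlap were those of Dbp, Mt1, Zbtb16, Hspa1b, Nr1d1, Slc2a4, Ciart, Nr1d2, Gm14097, Abcg8, Por and Gpcpd1, from −2.21 to −1.18. Abcg8 forms with Abcg5 the transporter that exports sterols into bile. It was at 56.8, 56.7 and 59.01 at ZT13 and 20.4, 27.99 and 24.6 at ZT17, with every ZT17 liver below every ZT13 liver (log2 change −1.22, adjusted p = 0.0011). Abcg5, whose gene is read in the other direction and whose annotation overlaps that of Abcg8, fell by 1.05 on the log2 scale. Por, the reductase that passes electrons to microsomal cytochromes P450, was at 613, 427 and 426 at ZT13 and 256, 183 and 199.8 at ZT17, and 1 ZT13 liver was higher than the rest (adjusted p = 0.012). Slc2a4, the insulin-responsive glucose transporter best known from muscle and fat, was low throughout, at 6.27, 2.70 and 4.12 at ZT13 and 0.446, 1.34 and 0.170 at ZT17 (adjusted p = 0.013). Its ZT17 livers held 6, 15 and 2 estimated reads against 76, 39 and 47 at ZT13. Gpcpd1, a glycerophosphocholine phosphodiesterase, fell from a mean of 64.2 to 27.7, and Gm14097 from 3.12 to 0.719, within the span of 1110034G24Rik on the other strand, which did not pass the test (0.21). Of the 17 alternative settings, Abcg8 kept its call in 17, Hspa1b in 16, Gpcpd1 in 15, Por in 13, Slc2a4 and Gm14097 in 10, Mt1 in 9 and Zbtb16 in 8.

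Of 21 heat shock chaperones, 2 fell, against 0.533% of all genes, and none rose. The median change was 0.12. At an unadjusted p below 0.05 there were 2 higher and 5 lower. Hspa1b (ENSMUSG00000090877, chr17:34956436-34959238), with the heat shock element shown above, was at 126, 189 and 68.02 at ZT13 and 30.3, 32.99 and 26.6 at ZT17, so the ZT13 livers varied widely among themselves and all lay above the tight ZT17 group (log2 change −1.94, adjusted p = 0.0097). Its near-identical neighbour Hspa1a had a change of −1.67 and no call (adjusted p = 0.061), and reads that fit both genes were divided between them by the quantification, so the values of the pair are uncertain. Dnajb1, a co-chaperone of HSP70, was at 51.97, 49.2 and 36.8 at ZT13 and 24.9, 28.7 and 22.4 at ZT17 and fell 1.81-fold (adjusted p = 0.011). Without ZT13 replicate 1 or ZT17 replicate 3, 1 of the list was called. Over all fits without 1 of the 6 livers, 1 to 3 were called lower. Hspa8 (−0.39) and Hsph1 (−0.27) were not called, nor were any of the 9 cold-inducible and temperature-responsive RNA-binding genes, among them Cirbp (0.48), Rbm3 (−0.32) and the kinase gene Clk1 (0.16). Of those 9, 1 was higher and 0 lower at an unadjusted p below 0.05.

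Of 27 genes of protein folding in the endoplasmic reticulum and the unfolded protein response, 2 rose and none fell, with a median of 0.27, and in 12 the ZT17 livers all lay above the ZT13 livers, against 9.63% of all genes tested. The called genes were protein disulfide isomerases. Pdia3 was at 475, 471 and 483 at ZT13 and 726, 667 and 596 at ZT17 (adjusted p = 0.032) and Pdia4 at 242, 239 and 215 at ZT13 and 429, 335 and 318 at ZT17 (adjusted p = 0.045), both without overlap. Both calls depended on single livers, since no gene of the list was called without any one of ZT13 replicates 1, 2 and 3 or ZT17 replicates 1 and 2, 1 was called without ZT17 replicate 3, and none was called with each liver scaled to a plain total. The stress factors Xbp1 (−0.18) and Atf4 (0.36) and the chaperone Hspa5 (0.26) did not pass the test.

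Among glucocorticoid receptor and response genes, 3 of the 15 measured fell, against 0.533% of all genes, none rose, and the median was −0.27. Mt1, a metallothionein that binds zinc and is induced by glucocorticoids and metals, was at 22.1, 20.6 and 6.99 at ZT13 and 2.78, 2.55 and 2.61 at ZT17, with 1 ZT13 liver nearer to ZT17 than the others (adjusted p = 0.027). Zbtb16, a zinc finger transcription factor, was at 33.7, 28.6 and 37.4 at ZT13 and 3.81, 19.97 and 5.12 at ZT17, where ZT17 replicate 2 stood apart from the other ZT17 livers (adjusted p = 0.03). Lpin1, a phosphatidate phosphatase of fat synthesis and a coactivator, was at 271, 64.8 and 253 at ZT13 and 23.5, 75.2 and 32.7 at ZT17, so the low ZT13 liver fell below the highest ZT17 liver (adjusted p = 0.049). These calls rested on few livers, as none was left without ZT13 replicate 1, ZT17 replicate 1 or ZT17 replicate 3, and 1 was left without ZT13 replicate 2. Up to 1 gene of the list was called higher when 1 of the 6 livers was left out. Tsc22d3 (0.21), Fkbp5 (−0.76) and the receptor gene Nr3c1 (−0.27) were not called.

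In lipid metabolism few genes of each list passed the test. Of 28 genes of fatty acid oxidation, ketogenesis and PPARA targets, 2 fell and the median was −0.02. Cpt1a (ENSMUSG00000024900, chr19:3322334-3385733), which admits long chain fatty acids to mitochondria, was at 370.5, 344 and 308 at ZT13 and 174, 172 and 168 at ZT17, and it fell 1.99-fold with little spread (adjusted p = 0.0037). Bdh1, the enzyme that interconverts the main ketone bodies, was at 180.1, 162 and 168 at ZT13 and 133, 129 and 128 at ZT17 (adjusted p = 0.022), while Ppara (−0.45) was not called. Leaving out each of the 6 livers of ZT13 and ZT17 in turn, Cpt1a was called each time and Bdh1 only without ZT13 replicate 2.

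Of 24 genes of de novo lipogenesis and its regulators, 1 rose and 1 fell, and the median was −0.34. Of the 24, 20 were below 0, against 7487 of all 14449 genes tested. Insig2, which holds SREBP precursors back in the endoplasmic reticulum, was at 116, 101 and 106 at ZT13 and 182, 159.5 and 209 at ZT17 (adjusted p = 0.023). It shares 3058 bases with Gm37174 on the other strand, which had a change of −0.11 and no call. The desaturase gene Fads2 was at 524, 318 and 376 at ZT13 and 195, 211 and 202 at ZT17, with its 3 ZT17 livers close together (adjusted p = 0.039). Srebf1 (−0.65, adjusted p = 0.12), Fasn (−0.49, adjusted p = 0.45) and Acaca (−0.50, adjusted p = 0.1) did not pass. Leaving out 1 of the 6 livers, a higher call was left only without ZT17 replicate 2. A lower call was left only without ZT13 replicate 2, where there were 2. No gene of the 26 of cholesterol synthesis and SREBP2 targets was called, none had an unadjusted p below 0.05, and the median was 0.08. Srebf2, which encodes the transcription factor SREBP2, had a log2 change of −0.05. Abcb11, the bile salt export pump, was at 326, 391 and 352 at ZT13 and 492, 498 and 533 at ZT17 and was the only called gene of the 21 in bile acid synthesis and transport (adjusted p = 0.013), beside Cyp7a1 (0.23), Cyp8b1 (0.35) and Nr0b2 (1.07). Abcb11 was not called without ZT13 replicate 1 or without ZT17 replicate 3. It shares 24185 bases with Gm13613 on the other strand, which had a change of 0.2 and no call.

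In sugar metabolism, Gys2, the liver glycogen synthase, was at 238, 267.5 and 260.4 at ZT13 and 164, 203 and 164 at ZT17 and fell 1.44-fold (adjusted p = 0.025). It was the 1 called gene of 21 in gluconeogenesis and glycogen, where the median was −0.18 and Pck1 (−0.18), G6pc (0.86) and Ppargc1a (0.06) were not called. None of the 20 genes of insulin signalling and FOXO targets was called (median −0.06), with 3 higher and 3 lower at an unadjusted p below 0.05. The nearest of those named was Irs2, an insulin receptor substrate, at 5.53, 6.06 and 3.69 at ZT13 and 12.9, 8.18 and 14.3 at ZT17 without overlap (adjusted p = 0.09), while Insr (−0.10) and Igfbp1 (1.54) were farther from the threshold. Of 20 genes of mTOR, AMPK and autophagy, 2 fell, against 0.533% of all genes, with a median of −0.20. Ulk1, the kinase that starts autophagy, was at 70.3, 56.9 and 61.97 at ZT13 and 27.8, 38.7 and 39.7 at ZT17 (adjusted p = 0.012), and Bnip3, a receptor for the removal of mitochondria, at 291, 284 and 254 at ZT13 and 205, 189.9 and 197 at ZT17 (adjusted p = 0.033). In both, every ZT17 liver was below every ZT13 liver, while Mtor (−0.24) and Prkaa2 (−0.18) were not called. Neither was called without ZT13 replicate 1 or without ZT17 replicate 1, and 1 of them without ZT13 replicate 2, ZT17 replicate 2 or ZT17 replicate 3. Igfbp4, a binding protein of insulin-like growth factors, was at 1394, 1175 and 1098 at ZT13 and 841, 862 and 832 at ZT17 (adjusted p = 0.029), the 1 call among 14 genes of the growth hormone and IGF1 axis, with −0.16 for Igf1, −0.02 for Ghr and −1.13 for Socs2. Leaving out 1 of the 6 livers, Gys2 was called only without ZT17 replicate 2 and Igfbp4 only without ZT13 replicate 3. In such fits the gluconeogenesis list and the insulin signalling list each reached up to 1 higher call.

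Tubb2a, a beta-tubulin, was at 70.4, 57.9 and 59.4 at ZT13 and 142, 119 and 152 at ZT17 and rose 2.20-fold (adjusted p = 0.0052), and its call held in all 17 alternative settings. In the same list of 19 SRF targets, actins and tubulins, Mkl1, a coactivator of SRF, was at 7.58, 7.29 and 8.21 at ZT13 and 4.56, 5.84 and 4.58 at ZT17 and fell (adjusted p = 0.042). The median of that list was 0.09, with Actb at 0.35 and Srf at −0.23, not called. Btg1, an antiproliferative gene, was at 20.4, 26.5 and 24.4 at ZT13 and 53.1, 36.8 and 65.5 at ZT17 and rose 2.18-fold (adjusted p = 0.034). It was the only call among 22 genes of the cell cycle and the p53 response, where Cdkn1a (0.60), Ccnd1 (−0.02) and Mki67 (−0.08) did not pass. Por was the 1 called gene of 23 in heme synthesis and xenobiotic metabolism. Alas1, the rate-limiting enzyme of heme synthesis, had a log2 change of −1.65 that was not called, with values of 956, 832 and 832 at ZT13 and 180.5, 491 and 240.0 at ZT17 (adjusted p = 0.31), and Nr1i3 stood at 0.05. Leaving out 1 of the 6 livers, Mkl1 and Btg1 were called only without ZT17 replicate 2. Por was not called without ZT13 replicate 1 or without ZT17 replicate 3.

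A number of other lists held no gene called by limma. The counts of their genes at an unadjusted p below 0.05 are given as higher and lower, against 1093 and 1059 of all 14449 genes. Without 1 of the 6 livers, the NRF2 list and the urea cycle list each reached up to 1 higher call. Cytosolic ribosomal proteins (30 genes) ran from −0.13 to 0.14, the narrowest range of these lists, and had 0 and 0, with Rplp0 at −0.06, Rps6 at 0.01 and Rpl3 at 0.06. Ribosome biogenesis (42 genes, median −0.00) had 2 and 3, with Ncl at −0.12, Polr1b at −0.10 and Nop56 at −0.18. The urea cycle and amino acid catabolism (29 genes, median −0.03) had 4 and 4, with Cps1 at 0.03, Tat at 0.41 and Sds at −0.55. Ranges were wider among 21 immediate early genes, from −1.99 to 0.96, which had 0 and 3, with Fos at −0.13, Jun at −0.26 and Egr1 at 0.96. NRF2 and glutathione genes (17, median 0.18) had 5 and 0, with Nfe2l2 at 0.22, Nqo1 at −0.11 and Gclc at 0.67. Polyamine and NAD genes (15, median −0.11) had 2 and 3, with Odc1 at 0.31, Amd1 at −0.33 and Nampt at −0.30. Plasma proteins (24, median 0.07) had 0 and 0, with Alb at 0.11, Apoa1 at −0.19 and Ttr at 0.16.

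**Figure D3:**
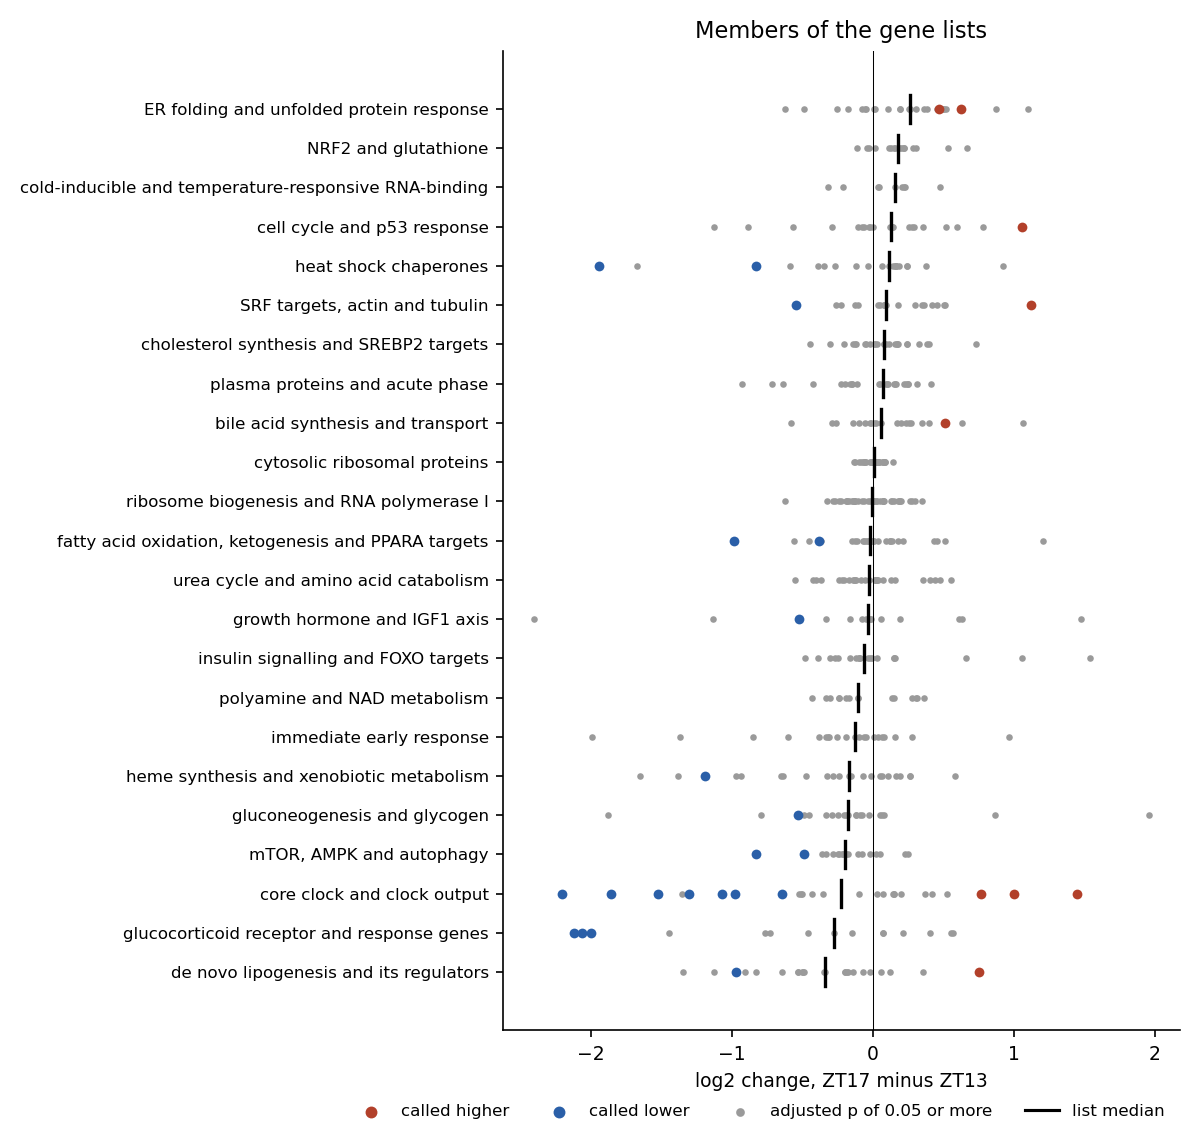
Log2 change from ZT13 to ZT17 (horizontal axis) of every measured gene of 23 gene lists, 1 list per line, ordered by median (black bar). Red and blue points are called higher and lower, grey points are not called. The clock list has 10 called genes and the others have 3 or fewer.

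Whole liver holds several cell types, and in bulk RNA fewer cells of a type cannot be told apart from less RNA per cell. The 8 hepatocyte markers, with most reads from Alb (not per length), had a median change of 0.04. Against 7487 of all 14449 genes tested below 0, all 10 Kupffer cell markers were lower at ZT17 with a median of −0.39, and none was called. Their summed values, with most reads from Clec4f (not per length), were 267, 259 and 341 at ZT13 and 235, 143 and 323 at ZT17, so the groups overlapped. All 9 markers of sinusoidal endothelial cells were lower too, with a median of −0.23, and their sums ran from 254 to 357 at ZT13 and from 186 to 329 at ZT17, the lowest in both cell types being ZT17 replicate 2. Stellate cell markers (9, median −0.15), cholangiocyte markers (6, 0.06), lymphocyte markers (5, 0.09) and neutrophil markers (4, −0.08) also held no call. The 5 erythroid genes had a median of 1.08 and no call, with sums of 108, 242 and 231 at ZT13 and 348, 225 and 293 at ZT17. The 1 pancreatic acinar marker in the table, Ctrb1, was at its lowest value in every liver but ZT17 replicate 1, where it was 1.13. The 4 adipocyte markers had no row in the table, so nothing can be said of them. Of all these markers, only Stab2 of the endothelial list had an unadjusted p below 0.05. The part of these cell types in the gene changes was not tested.

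Of the times not used to choose the genes, ZT1 and ZT21 were most often those of the highest mean in the genes that rose. Of the 97, the mean was highest at ZT1 in 38, at ZT21 in 28, at ZT17 in 25, at ZT5 in 4 and at ZT9 in 2. The mean was lowest at ZT13 in 47 and at ZT9 in 40. Of the 77 genes that fell, 35 were highest at ZT13 and 34 at ZT9, and 37 were lowest at ZT1. The choice of genes fixes which of ZT13 and ZT17 is higher, but not the other 4 times. It therefore favours ZT17 as highest and ZT13 as lowest in the genes that rose, and the reverse in those that fell. The same counts over all genes were not worked out, so these counts are a description only. Arntl, for instance, had means of 31.6 at ZT1, 4.16 at ZT5, 1.31 at ZT9, 6.69 at ZT13, 19.9 at ZT17 and 26.3 at ZT21. Dbp ran the other way, with 0.308 at ZT1, 70.6 at ZT5, 111 at ZT9, 12.7 at ZT13, 1.95 at ZT17 and 0.936 at ZT21. For Zbtb16 the series was 8.20 at ZT1, 5.25 at ZT5, 12.2 at ZT9, 33.2 at ZT13, 9.63 at ZT17 and 8.52 at ZT21, a single high time at ZT13.

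A step of the same length at the opposite time of day, from ZT1 to ZT5 in the morning, shares no liver with this one, so the 2 steps could be tested against each other. The change differed between them in 1202 genes (8.32% of those tested), 620 with a higher (4.29%) and 582 with a lower change (4.03%) in the dark. Of the 97 genes that rose from ZT13 to ZT17, 85 were below 0 from ZT1 to ZT5, and 40 of them were called lower there and none higher, where 2.36% of all genes were called lower. Of the 77 that fell, 70 were above 0 in the morning, and 40 were called higher and none lower, where 2.53% of all genes were called higher. Both steps used the same estimate of spread for each gene, so genes of small spread are called more readily in both. The 2.36% and 2.53% are therefore not a like baseline for called genes, and the signs of all genes in the morning are not given here. Since the genes were chosen on the dark step, which is part of the difference, the 85 and 70 of them in which the difference was called are a description only. Hspa1b and Zbtb16 were among the exceptions, with morning changes of −0.98 and −0.56, and their difference between the steps was not called.

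**Figure D4:**
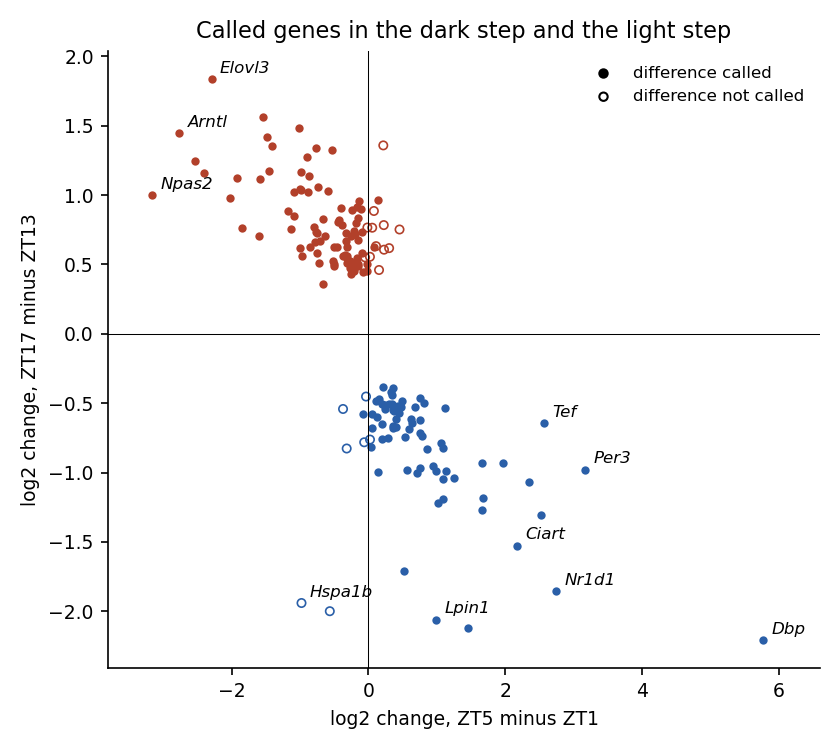
Log2 change from ZT1 to ZT5 (horizontal axis) and from ZT13 to ZT17 (vertical axis) of the 174 called genes, red for those that rose and blue for those that fell in the dark step. Filled points have a called difference between the steps. Most points lie in the upper left and lower right, with Dbp farthest out, and Hspa1b is in the lower left.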

How the data were processed

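RNA of 18 mouse livers, polyadenylated RNA per the labels, was sequenced, 3 at each of 6 times. Per the labels and the study's methods, the authors trimmed adapters with Cutadapt, mapped reads to the transcriptome of GRCm38 (Ensembl annotation), estimated counts with RSEM 1.2.20 and normalized with limma. The deposited unit is a linear signal, the estimated count plus 0.5 per 1000000 reads of an effective library size. Between 39.1% and 47.9% of values per liver were whole reads within 0.001, so no count test was used.

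Genes above the floor of any liver were fitted with limma 3.58.1 (R 4.3.3) on log2(value + 1) with 6 time point means over all 18 livers (12 residual degrees of freedom), and contrasts were tested two-sided with Benjamini-Hochberg adjustment over 14449 genes. A gene was called, and is said to rise or fall, at an adjusted p below 0.05. An exact permutation test of 3 against 3 livers cannot go below 0.1 and was not used. Tested on simulated data of these genes, the ZT13 to ZT17 contrast recovered 32 of 100 genes changed by 0.5 on the log2 scale and 81 of 100 changed by 1, with 8 false calls. The simulated noise was normal and independent between genes, around the same mean at all 6 times. Only genes with a mean log2(value + 1) of at least 1 were changed. Shared shifts and outlying livers were not simulated, so these counts do not give the error rate of the real comparison. Estimated reads were worked out from the floor of each library, where a gene has 0 reads. Coordinates are from GENCODE M21 (GRCm38). Promoters are from RefSeq (GRCm38.p6), without those of chromosome 18.

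The comparison, the 23 pathway lists, the 10 cell marker lists and the tests were chosen with earlier results of these data known. Named genes are the clock list, the 12 largest rises and falls among called genes whose groups do not overlap and whose higher mean is at least 1, the first 3 and up to 4 called genes of every other list, and the 3 genes of lowest p of each sign in the difference between steps. Some genes that this rule names are not reported here, although the fit and the list counts hold them. Other genes are named after their values were seen, among them Abcg5, Hspa1a and those in the other observations. Alternatives covered the pseudocount, filters, scaling, the variance model, the livers fitted and the thresholds. Each liver of ZT13, ZT17, ZT1 and ZT5 was also left out in turn, but none of ZT9 or ZT21. The TPM table was not used.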

Additional observations from a re-analysis of the deposited data

Results flagged for a closer look

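The 6 genes below and their total were marked because the change from ZT13 to ZT17 differed from that from ZT1 to ZT5 by limma's test of the difference itself, with 1202 genes called in all. The differences are those of the log2 changes, dark step minus morning step. For Npas2 it was 4.16 (adjusted p = 3.4e-08), as the gene was at −3.16 in the morning and at 1.00 in the dark. Nfil3 was at −2.43 and 0.53, a difference of 2.96 (adjusted p = 1.6e-07), although its dark change alone was not called. Clpx was at −1.59 and 1.12, a difference of 2.71 (adjusted p = 1.5e-07).

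Of the differences below 0, that of Dbp was −7.97 (adjusted p = 2.9e-11), from 5.77 in the morning to −2.21 in the dark. Nr1d2 was at 2.53 and −1.30, a difference of −3.83 (adjusted p = 6.3e-08). Tef was at 2.56 and −0.64, a difference of −3.20 (adjusted p = 6.8e-09). In all 6 the morning and dark changes had opposite signs, which their choice by the lowest p of the difference favours.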

How the results depend on the processing

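No paired analysis was possible because replicate numbers were given in accession order and name separate animals. Against 174 calls (97 higher, 77 lower), limma with an intensity trend and robust variances gave 301 (162 and 139), a fit of the 6 livers alone 20 (9 and 11), an adjusted p below 0.01 gave 28 (15 and 13) and a log2 change of at least 1 gave 41 (24 and 17). The other alternatives, namely smaller pseudocounts, filters and scaling, stayed within 1.5 times, from 122 to 194. Leaving out 1 of the 6 livers gave 49 to 141 calls, 25 to 79 higher and 20 to 62 lower. The 1202 genes that differed between the steps became 456 at an adjusted p below 0.01, 439 at a difference of at least 1, and 804 to 1115 without 1 of the 12 livers. Fewer livers lower the residual degrees of freedom, and the cause of other shifts was not tested. Of 46 called named genes, Dbp, Spon2, Abcg8, Tubb2a and Clpx were called in all 17 settings and the other 41 lost the call in at least 1. None of the 46 changed sign.

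Genes that were not called and near 0 changed sign. With plain totals Csnk1e was at −0.00215, Rps6 at −0.0357 and Cps1 at −0.0114, and with quantile normalization Cps1 was at −0.0618 and Ccnd1 at 0.00839. Without 1 liver, Csnk1e ran from −0.0987 to 0.18, Csnk1d ran from −0.00125 to 0.134, Fbxl21 ran from −0.0475 to 0.302, Srebf2 ran from −0.1 to 0.0119, Pck1 ran from −0.426 to 0.105, Ppargc1a ran from −0.0393 to 0.128, Cyp7a1 ran from −0.12 to 0.599, Rps6 ran from −0.00988 to 0.0335, Cps1 ran from −0.0328 to 0.147, Fos ran from −0.221 to 0.00748, Nr1i3 ran from −0.0575 to 0.224, Nqo1 ran from −0.29 to 0.0986, Mki67 ran from −0.179 to 0.0609, Ccnd1 ran from −0.277 to 0.274 and Ghr ran from −0.143 to 0.0493. With 3 livers a time, the smallest change called for any gene was 0.36 on the log2 scale.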

Other observations

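The genes below were picked from the called genes after their values were seen, so their grouping carries no test. Nucleoside phosphorylases were called in both directions, with Tymp rising from a mean of 31.98 to 57.00 and Pnp from 56.02 to 93.97, and with Upp2, a uridine phosphorylase, falling from 362 to 193. In glycine and serine metabolism, Amt of the glycine cleavage system rose from 20.8 to 33.9 and Psph of serine synthesis from 3.66 to 7.02. Slc25a32, a mitochondrial folate carrier, fell from 13.4 to 8.70. The tight junction genes Cldn1 and Cgn rose from 57.8 to 121 and from 38.7 to 61.9.

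Transport and secreted factors were also among the calls. Slc38a3, a glutamine transporter, fell from 1195 to 676 and Mfsd2a, a carrier of lysophosphatidylcholine, from 46.9 to 23.3. Leap2, a liver peptide that blocks the ghrelin receptor, rose from 35.3 to 71.1, and Nrg4, a neuregulin, fell from 13.8 to 6.61. Pnpla2, the main triglyceride lipase of fat stores, fell from 54.99 to 32.1, and Avpr1a, a vasopressin receptor, rose from 14.7 to 30.6. In each of these genes the 3 livers of one time did not overlap the 3 of the other.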
